A study of Sciaenops ocellatus with 36 samples.

Results

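The genes described here are 56 factors of ribosome biogenesis and RNA polymerase I, chosen by symbol and grouped by their known role. The rule uses no measured value, but the genes were picked with earlier results of these data known. All 56 had a row in each of the 6 deposited tables of 56346 rows. RNA was sequenced from whole embryos and larvae of red drum, Sciaenops ocellatus, a marine fish of coastal waters, kept at 25 °C in clean water or in water prepared with Deepwater Horizon oil. The oil was either an unweathered source oil (Mass in the labels) at 0.27% or a naturally weathered slick oil (OFS or Slick in the labels) at 2.50%. The labels describe 36 samples in 12 groups of 3, and each sample pooled 30 animals. Eggs came from brood stock tanks, and every group, controls included, had been bathed in formalin against bacteria before the test.

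The values below come from 29 libraries in 10 groups. Clean-water controls of the source series covered 24, 48 and 72 hours post-fertilization (hpf) and those of the slick series 24 and 48 hpf. Animals in source oil were taken at 24 and 72 hpf, and animals in slick oil at all 3 ages. Each group held 3 libraries, except the slick-series controls at 24 hpf with 2. Source oil at 48 hpf and clean water of the slick series at 72 hpf are not analysed here, and slick oil at 72 hpf was compared with the source-series controls of that age. In the deposited tables some column prefixes go against the library names beside them, and the library names were followed here. The 3 columns marked as slick-series controls of 72 hpf carry the names and the identical counts of the source-series controls of 72 hpf. The 3 columns marked as source oil at 48 hpf, and 1 marked as a slick-series control of 24 hpf, carry the names and identical counts of slick-series controls of 48 hpf. Total counts ran from 4771973 to 5880716 in the 6 libraries of the 24 hpf source-oil table and from 2532771 to 3280939 in the other 23 libraries. The numbers that end the slick-oil library names overlap those of other libraries, and neither labels nor headers say what these numbers mark or name a sequencing run. Every slick-oil library has Stick in its name, while the slick-series controls have SO and the source-series libraries MO. Whether the slick-oil libraries were handled apart was not tested, and any such difference could not be told apart from slick oil. Nothing in the labels says that the pools of 1 group were raised apart, and the p-values therefore measure only the spread between these samples, which may be technical. Markers of skeletal muscle, lens, retina, liver, neurons and blood all had counts, although ACTA1, BFSP2, CRX, APOA1 and STMN2 were at 0 in the controls of every age.

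Ribosomes are built in the nucleolus, where RNA polymerase I transcribes the ribosomal DNA into a long precursor RNA. Small nucleolar ribonucleoproteins (snoRNPs) modify the precursor, and sets of assembly factors fold, cut and load it with ribosomal proteins to give a small and a large subunit. The pathway is highly active in growing embryos, and the transcription factor MYC is known to raise the expression of many of its genes. The 56 genes fall into 6 roles. RNA polymerase I and its initiation factors had 8 genes, snoRNP proteins 8, nucleolar proteins with several functions 6, small-subunit factors 18, large-subunit factors 14, and the MYC factors 2.

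The deposited rows carry human gene symbols, and paralogs of the fish may be merged under 1 symbol. Of the 56 genes 42 had counts in both the 24 hpf source-oil table and the other libraries. NOLC1, POLR1D and TAF1D were at 0 in all libraries. NOP58 and RRP1 were at 0 in the 24 hpf source-oil table alone. Another 9 had counts in that table alone, namely POLR1E, GAR1, NPM1, GNL3, NOP14, NOC4L, UTP15, WDR12 and EBNA1BP2. The same gene could stand at very different levels in that table. NOP58, a core protein of the box C/D snoRNP, had 59.6 and 58.0 CPM (counts scaled to a common library size after TMM adjustment for composition) in the slick-series controls at 24 hpf and 0 CPM in the source-series controls of that age. NCL, nucleolin, had 42.4, 35.9 and 37.0 CPM in those source-series controls and 0 CPM in the slick-series ones. Levels are therefore compared only among the other 23 libraries, and the 24 hpf source-oil table is used for changes within it. POLR1C, at 0 to 1.83 CPM in the 23 libraries, was tested in no comparison, nor were NPM1, GNL3 and POLR1E.

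In larvae of 72 hpf kept in source oil, mean transcript levels of nearly the whole measured pathway were lower than in clean water. Of the 36 genes that passed the low-count filter, 24 fell and 0 rose, by edgeR's quasi-likelihood test with Benjamini-Hochberg adjustment over all genes tested (adjusted p under 0.05, the threshold for every call here). Over the 8983 genes tested in all, 20.4% had a call, 11.4% upward and 9.04% downward. The median log2 fold change was -0.64 over the 36 genes and 0.0016 over all genes. In 34 of the 36 the oil mean lay below the control mean, and 32 had an unadjusted p under 0.05, beside 2892 of all 8983 genes. In 23 of the 24 called genes each source-oil library lay below each control library, the exception being the RNA helicase DDX18. The calls were made on these same libraries, so this separation is no separate result. Its share over all genes was not computed. As each sample is a pool of whole animals, fewer cells of a type and less RNA per cell cannot be told apart.

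**Figure D1:**
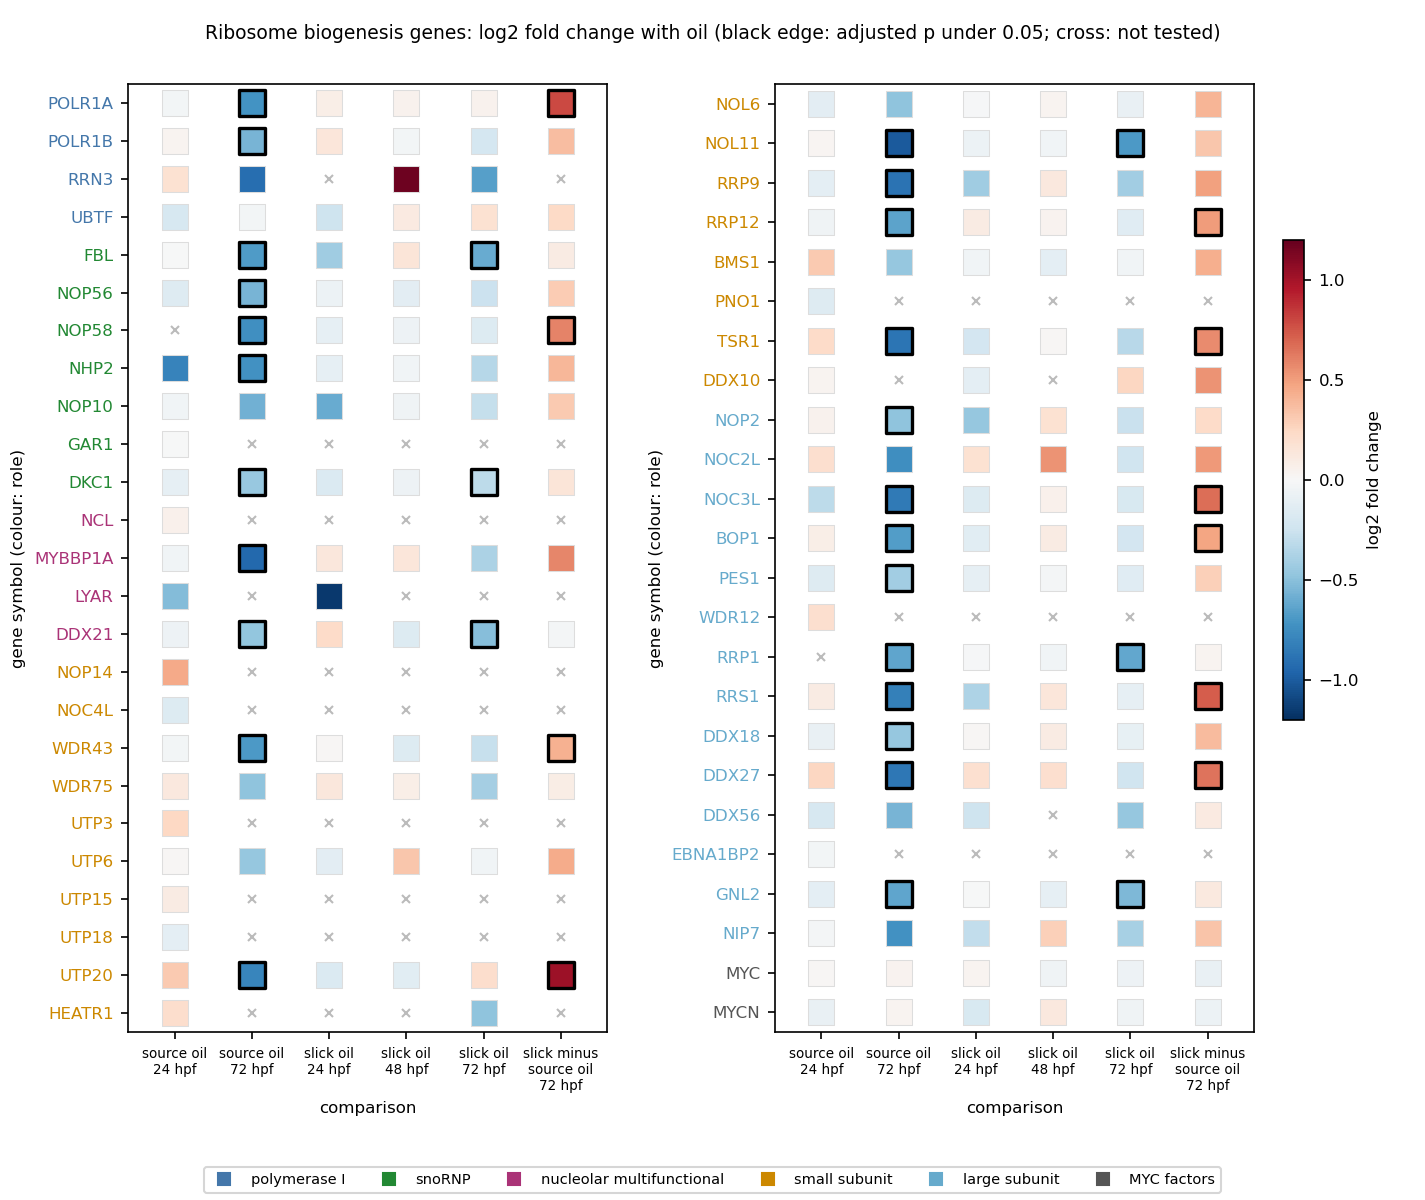
Log2 fold change (colour scale) of each gene tested at least once (rows, symbol coloured by role) in the 5 comparisons of oil with control and in slick minus source oil at 72 hpf (columns); a black edge marks an adjusted p under 0.05 and a cross a gene not tested. The 24 calls of source oil at 72 hpf are all blue (lower with oil), the 6 calls of slick oil at 72 hpf are blue too, and the 10 calls of slick minus source oil are all red.

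POLR1A (gene ID 25885), the largest catalytic subunit of RNA polymerase I, had 54.8, 61.8 and 51.0 CPM in the 3 controls of 72 hpf and 33.8, 33.3 and 33.4 CPM in the 3 source-oil libraries. The groups did not overlap, and the log2 fold change was -0.72 (SE 0.13, edgeR adjusted p = 0.000144). The second-largest subunit POLR1B had 35.5, 41.98 and 34.2 CPM in controls and 22.4, 19.8 and 32.2 CPM with source oil, a log2 change of -0.56 (SE 0.17, edgeR adjusted p = 0.0162). One source-oil library of POLR1B stood just under the lowest control, and the edgeR adjusted p was 0.0801 without control library 2, 0.0738 without oil library 1 and 0.0992 without oil library 2. RRN3, the initiation factor that brings the polymerase to its promoter, had only 3.70, 5.05 and 4.63 CPM in controls against 2.04, 2.25 and 2.65 CPM with source oil. Its log2 fold change of -0.91 carried an SE of 0.38 and missed the threshold (edgeR adjusted p = 0.0968). UBTF, the upstream binding factor that keeps ribosomal DNA open for transcription, had 89.9, 86.3 and 88.04 CPM in controls and 80.3, 87.3 and 87.2 CPM with source oil. These ranges overlapped, and its log2 fold change was -0.03 (SE 0.10, edgeR adjusted p = 0.864). Polymerase I thus held 2 calls among 4 genes tested, with a median of -0.64. Subunits that RNA polymerase I shares with the other RNA polymerases, kept as a list of their own, did not fall. Of 3 tested 0 were called, with a median of 0.15.

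The snoRNP proteins fell together. Of 6 tested, 5 were called lower, with a median log2 fold change of -0.63 and a narrow range from -0.74 to -0.45. NOP58 had 53.3, 68.0 and 47.0 CPM in controls and 29.8, 40.1 and 29.2 CPM with source oil, a log2 change of -0.74 (SE 0.15, edgeR adjusted p = 0.000616). FBL (gene ID 2091), fibrillarin, the methyltransferase of the box C/D particle, had 38.1, 53.6 and 41.3 CPM in controls and 29.3, 32.6 and 19.7 CPM with source oil. Its log2 fold change was -0.68 (SE 0.17, edgeR adjusted p = 0.00365), and NOP56, the partner of NOP58 in that particle, had -0.55 (edgeR adjusted p = 0.00204). DKC1, dyskerin, the pseudouridine synthase of the box H/ACA particle, had 124, 177 and 135 CPM in controls and 114, 109 and 90.97 CPM with source oil. It moved least of the called snoRNP genes, by -0.45 (edgeR adjusted p = 0.00731), and the edgeR adjusted p was 0.0954 without control library 2 and 0.0563 without oil library 3. NHP2, of the same particle, had -0.73 (edgeR adjusted p = 0.0132, but 0.106 without control library 2 and 0.0680 without oil library 3), and NOP10, at 6.11 to 12.1 CPM in these 6 libraries, had -0.58 and was not called.

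Among the nucleolar proteins with several functions only MYBBP1A and DDX21 passed the filter, and both fell. DDX21 (gene ID 9188), an RNA helicase that works in both polymerase I transcription and precursor processing, had 669, 739 and 620 CPM in controls and 445, 465 and 534 CPM with source oil, a log2 change of -0.47 (SE 0.10, edgeR adjusted p = 0.00101). MYBBP1A, a MYB-binding nucleolar protein, had 14.8, 10.1 and 13.5 CPM in controls and 6.52, 7.86 and 5.31 CPM with source oil. Its log2 fold change was -0.95 (SE 0.26, edgeR adjusted p = 0.00915), and without oil library 3 the edgeR adjusted p was 0.0514. NCL and NPM1, nucleophosmin, had no counts in these 6 libraries.

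Of 10 small-subunit factors tested 6 fell, with a median log2 fold change of -0.67 and all 10 below 0. TSR1 (gene ID 55720), which binds the late precursor of the small subunit, had 41.4, 47.0 and 39.6 CPM in controls and 20.0, 22.5 and 26.2 CPM with source oil, a log2 change of -0.88 (SE 0.15, edgeR adjusted p = 7.98e-05). NOL11, of the early small-subunit processome, showed the lowest value of all 36 genes. It had 21.5, 29.2 and 20.7 CPM in controls and 9.37, 11.6 and 13.6 CPM with source oil, a log2 change of -1.01 (SE 0.20, edgeR adjusted p = 0.000614). The processome factor WDR43 had -0.69 (edgeR adjusted p = 0.000553), RRP9, a protein of the U3 snoRNP, -0.89 (edgeR adjusted p = 0.00121), and the export factor RRP12 -0.65 (edgeR adjusted p = 0.00325). UTP20 had 17.8, 17.1 and 13.5 CPM in controls and 6.52, 7.49 and 13.3 CPM with source oil. The third oil library of UTP20 was almost level with the lowest control, and the log2 fold change was -0.80 (SE 0.25, edgeR adjusted p = 0.0213). That call was lost by edgeR without oil library 1 (adjusted p = 0.119), oil library 2 (0.0974), control library 1 (0.0611) or control library 2 (0.0567). The processome scaffold HEATR1, at 3.56 to 7.39 CPM in controls and 1.87 to 3.41 CPM with source oil, did not pass the filter. BMS1, the processome GTPase, and UTP6 had the smallest changes, -0.47 and -0.46, and were not called.

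The large-subunit factors held the most calls, 9 of 12 tested, with a median of -0.66 and all 12 below 0. BOP1 (gene ID 23246), which with PES1 and WDR12 forms the PeBoW complex needed to mature the large-subunit RNA, had the smallest adjusted p of the 36 genes. It had 128, 144 and 128 CPM in controls and 80.3, 80.1 and 86.4 CPM with source oil, a log2 change of -0.67 (SE 0.10, edgeR adjusted p = 2.02e-05). Its partner PES1 had 95.1, 112 and 111 CPM in controls and 72.1, 91.8 and 71.3 CPM with source oil, the smallest change among the large-subunit factors at -0.42 (edgeR adjusted p = 0.00983). That call was lost by edgeR without oil library 1 (adjusted p = 0.0573) or oil library 3 (0.0510), and WDR12 had no counts here. RRS1, which brings the 5S ribonucleoprotein into the large-subunit precursor in yeast, had 45.1, 46.6 and 39.9 CPM in controls and 26.1, 24.7 and 22.7 CPM with source oil. Its log2 fold change was -0.82 (SE 0.14, edgeR adjusted p = 9.43e-05). The nucleolar GTPase GNL2 had -0.64 (edgeR adjusted p = 0.000278), and the RNA helicase DDX27 the lowest value of this role, -0.87 (edgeR adjusted p = 0.00159). The methyltransferase NOP2 at -0.48, RRP1, a processing factor, at -0.64 and the helicase DDX18 at -0.46 passed narrowly, with edgeR adjusted p-values of 0.0374, 0.0417 and 0.0487. With 1 library left out these 3 rose to at most 0.158, 0.185 and 0.227, and the calls of NOP2 and DDX18 were lost without control library 2 or 3 or oil library 1 or 3. That of RRP1 was lost without any 1 library other than oil library 2. The 5 roles other than the MYC factors thus had medians between -0.71 and -0.63 in source oil at 72 hpf. By library, the median log2 ratio of the 36 genes to the control mean was -0.10 to 0.13 in the controls and -0.72 to -0.54 in the source-oil libraries.

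**Figure D2:**
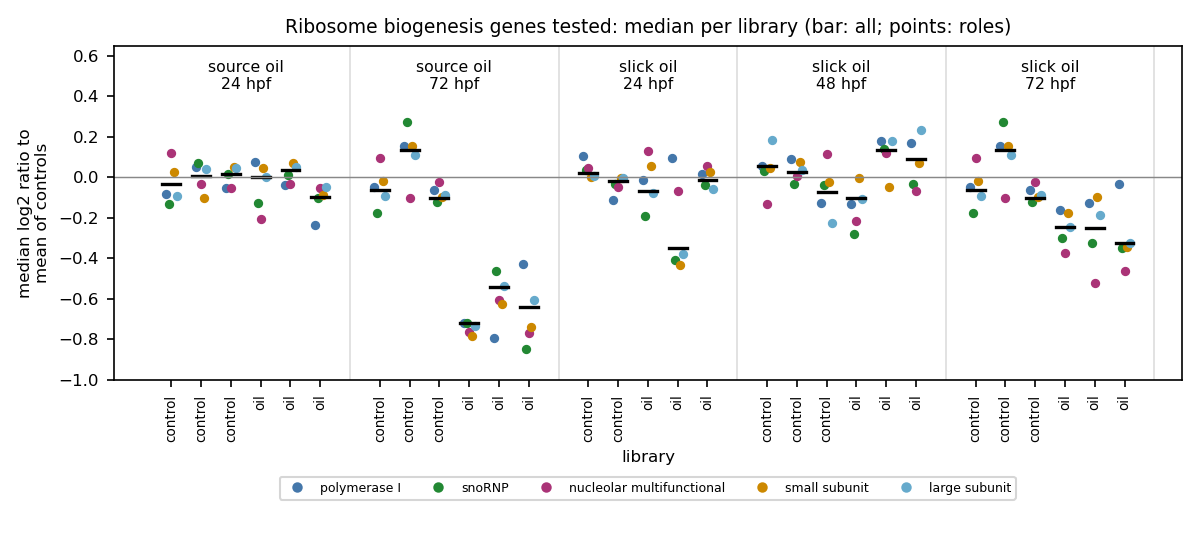
Median log2 ratio (vertical axis, with 0.5 CPM added) of the genes tested to the mean of the controls, for each library (horizontal axis) of the 5 comparisons; bars are the median over all these genes and points the median of each role other than the MYC factors. The MYC factors are not drawn as points and had medians of -0.14 to 0.14 in the source-oil libraries of 72 hpf. The 3 source-oil libraries of 72 hpf stand at -0.72 to -0.54 and the 3 slick-oil libraries of 72 hpf at -0.33 to -0.24, below the same 3 controls.

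Neither MYC factor was called. MYC had 51.1, 63.4 and 54.5 CPM in controls of 72 hpf and 61.1, 64.0 and 47.0 CPM with source oil, a log2 change of 0.05 (SE 0.13, edgeR adjusted p = 0.848). MYCN, its relative in embryonic and neural tissue, had 94.4, 110 and 107 CPM in controls and 101, 111 and 103 CPM with source oil, a log2 change of 0.03 (SE 0.10, edgeR adjusted p = 0.867). Both pairs of groups overlapped. Of the MYC partners and relatives, 1 of 4 tested was called, namely MYCL, the third MYC paralog, which rose from 35.8 ± 4.52 CPM (SD, n = 3) to 61.4 ± 7.35 CPM (n = 3), a log2 change of 0.79 (SE 0.13, edgeR adjusted p = 5.86e-05). MDM2, the ubiquitin ligase that free ribosomal proteins are known to inhibit, rose from 31.7 ± 2.19 to 49.2 ± 9.70 CPM (edgeR adjusted p = 0.0017), and CDKN1A had no counts.

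Further factors of the same pathway also fell. In 4 further lists of assembly, snoRNP and polymerase I factors with 91 symbols in all, 58 passed the filter, of which 24 fell and 1 rose, with a median log2 fold change of -0.47. The small-subunit list had 13 of 25 lower and a median of -0.56, led by the methyltransferase DIMT1 at -1.19 (edgeR adjusted p = 8.34e-05) and the kinase RIOK2 at -0.71 (edgeR adjusted p = 0.00104). The large-subunit list had 10 of 29 lower and a median of -0.31. It was led by the nuclear export adapter NMD3 at -0.84 (edgeR adjusted p = 1.15e-06) and the subunit anti-association factor EIF6 at -0.72 (edgeR adjusted p = 1.57e-05). Its 1 gene higher was ZNF622, a late cytoplasmic factor, at 0.75. Of 9 exosome and RNA-decay genes 2 fell, led by the nuclease DIS3 at -0.85.

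Other lists of the translation and transcription machinery had medians nearer to 0 than the -0.64 of the 36 genes, though not all nearer than the -0.31 of the further large-subunit list. Cytosolic ribosomal proteins had 54 of 64 lower and 0 higher, with a median of -0.36. Among RNA polymerase III subunits 3 of 7 fell, with POLR3K at -0.94 (edgeR adjusted p = 0.00167) and a median of -0.36. RNA polymerase II subunits had 1 higher, POLR2A at 0.62, and 1 lower, POLR2J at -0.68, of 6. Aminoacyl-tRNA synthetases had 5 of 18 lower and a median of -0.22. No test compared these lists with the 56 genes. Markers of dividing cells moved along with them, with 7 of 9 lower, a median of -0.72 and a summed level of 273 to 307 CPM in controls and 175 to 183 CPM with source oil. The lens markers also stood lower, at a summed 4312 to 5303 CPM with source oil against 7533 to 10456 CPM in controls. Photoreceptor and retinal pigment markers had 4 of 5 lower, at a summed 900 to 1034 CPM against 1797 to 2172 CPM, neuron markers 4 of 6, at 1034 to 1121 against 1324 to 1507 CPM. Blood markers had 3 of 4 lower and 1 higher, at 241 to 296 against 212 to 248 CPM, and liver markers 2 of 5 lower and 1 higher, at 652 to 940 against 673 to 903 CPM. Skeletal muscle markers had 1 of 5 higher and 0 lower, at 41128 to 48273 against 35750 to 44535 CPM. The part of these cell types in the fall of the ribosome biogenesis genes was not tested.

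**Figure D3:**
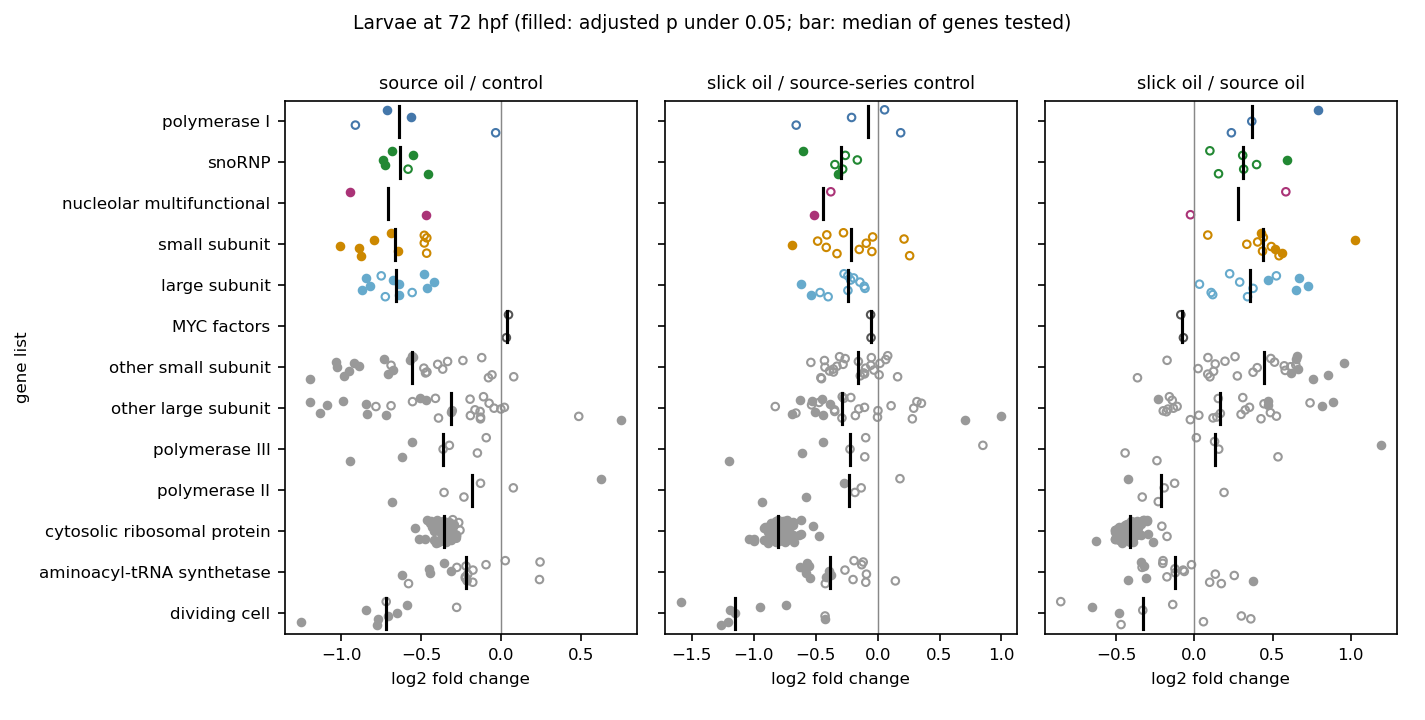
Log2 fold change (horizontal axis) of each gene tested, by list (vertical axis), for source oil against control, slick oil against the source-series control and slick oil against source oil, all at 72 hpf; filled points have an adjusted p under 0.05 and bars are medians. The roles other than the MYC factors have medians between -0.71 and -0.63 with source oil, while the cytosolic ribosomal proteins have a median of -0.36 with source oil and -0.80 with slick oil.

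Slick oil at 72 hpf was compared with the same 3 control libraries, so the results of the 2 oils share their controls. Here 6 of 38 genes tested fell and 0 rose, beside 18.6% of all genes called, 8.55% higher and 10.1% lower. The median log2 fold change was -0.25 over the 38 genes and 0.0093 over all genes, and 34 of the 38 lay below 0. DESeq2 called 4, and the count was 2 without control library 2 and 3 without slick-oil library 2. The 6 genes were DDX21, GNL2, FBL, NOL11, DKC1 and RRP1, of which DDX21 and GNL2 kept their call in all 13 alternative settings tried.

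DDX21 had 491, 442 and 473 CPM with slick oil, below the 669, 739 and 620 CPM of the controls, a log2 change of -0.51 (SE 0.09, edgeR adjusted p = 5.25e-05). GNL2 had 74.5, 65.3 and 74.8 CPM with slick oil and 96.2, 124 and 94.8 CPM in controls, a log2 change of -0.54 (SE 0.11, edgeR adjusted p = 0.000457). FBL had 34.2, 31.0 and 21.2 CPM with slick oil, all below the controls, and a log2 change of -0.60 (SE 0.16, edgeR adjusted p = 0.00608). That call was lost by edgeR without control library 2 (adjusted p = 0.0563) or slick-oil library 3 (0.0621). NOL11 had 15.1, 12.997 and 15.3 CPM with slick oil and a log2 change of -0.69 (SE 0.18, edgeR adjusted p = 0.0075), lost without control library 2 (adjusted p = 0.0743) or slick-oil library 2 (0.0590). DKC1 had -0.32 (edgeR adjusted p = 0.0306) and RRP1 -0.62 (edgeR adjusted p = 0.0383). Without control library 2 the edgeR adjusted p of DKC1 was 0.340, and it was 0.0928, 0.101 and 0.107 without slick-oil library 1, 2 or 3. RRP1 had edgeR adjusted p-values of 0.0653 to 0.187 without any 1 library other than slick-oil library 3.

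The polymerase I genes were not called with slick oil. POLR1A had 55.8, 63.9 and 52.2 CPM, with 1 library above the highest control and the others among the controls, and a log2 change of 0.06 (SE 0.12, edgeR adjusted p = 0.792). POLR1B had -0.21, RRN3 -0.66 and UBTF 0.19, with adjusted p-values of 0.346, 0.246 and 0.207 in the edgeR fit. Of the shared polymerase subunits 3 were tested and 0 called, with a median of -0.17. Of the small-subunit factors NOL11 alone was called among 12, HEATR1 had -0.48 (SE 0.35, edgeR adjusted p = 0.366), UTP20 0.21 and DDX10, an RNA helicase, the highest value of the role, 0.26. Among the large-subunit factors BOP1 had 105, 120 and 114 CPM with slick oil, a log2 change of -0.22 (SE 0.09, edgeR adjusted p = 0.0983), and PES1 had -0.14. In the snoRNP role NOP56 had -0.26 (edgeR adjusted p = 0.0819) and NOP58 -0.16. MYC at -0.06 and MYCN at -0.05 were not called, NPM1 had no counts, and NCL had a single count in 1 slick-oil library.

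All 64 cytosolic ribosomal proteins tested fell, with a median of -0.80, for example RPLP0 of the stalk at -0.86 (edgeR adjusted p = 4.15e-09). The controls here are of the source series. In clean water at 48 hpf 33 of 64 ribosomal proteins were higher in that series than in the slick series, with a median of 0.32. The part of this difference between series in the fall was not tested. Of the 58 further assembly factors 9 fell and 2 rose, with a median of -0.28, and NMD3 had -0.69 (edgeR adjusted p = 3.64e-07). Aminoacyl-tRNA synthetases had 9 of 18 lower and a median of -0.39. Subunits of RNA polymerase II had 3 of 6 lower and a median of -0.23, and those of RNA polymerase III 3 of 7 and -0.22. Exosome and RNA-decay genes had 2 of 10 lower and a median of -0.46. In these 3 lists 0 genes were higher. Dividing-cell markers had 8 of 9 lower, a median of -1.15 and a summed level of 137 to 175 CPM. Lens markers had 5 of 5 lower, at a summed 5977 to 6303 CPM, and liver markers 5 of 5, at 382 to 581 CPM. Photoreceptor and retinal pigment markers had 3 of 5 lower, at 1210 to 1366 CPM, and skeletal muscle markers 3 of 5, at 31555 to 32742 CPM. Neuron markers had 1 of 6 lower, at 1277 to 1439 CPM, and blood markers 1 higher and 1 lower of 4, at 236 to 278 CPM. The part of these cell types in the slick-oil result was not tested either. MYCL at 0.17 and MDM2 at 0.26 were not called.

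Larvae of 72 hpf in slick oil and in source oil were then compared directly, without the controls. Of 36 genes tested 10 were higher in slick oil and 0 lower, while 17.5% of all genes were called, 7.61% higher and 9.85% lower. The median log2 difference was 0.39 over the 36 genes and 0.0035 over all genes, 33 of the 36 lay above 0, and DESeq2 called 5. POLR1A led with a difference of 0.79 (SE 0.13, edgeR adjusted p = 4.66e-05), its 3 slick-oil libraries at 52.2 to 63.9 CPM and its 3 source-oil libraries at 33.3 to 33.8 CPM. RRS1 had 38.9, 37.5 and 44.2 CPM in slick oil, a difference of 0.73 (edgeR adjusted p = 0.000424), and BOP1 one of 0.47 (edgeR adjusted p = 0.000882). UTP20 had the largest difference, 1.02 (SE 0.22, edgeR adjusted p = 0.00139), with 18.3, 19.9 and 17.2 CPM in slick oil. NOP58 had 53.6, 46.9 and 47.5 CPM in slick oil and a difference of 0.59 (edgeR adjusted p = 0.00242). These 5 kept their call in all 11 alternative settings.

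DDX27, TSR1, RRP12, WDR43 and NOC3L, a large-subunit factor, were the other 5 called, at 0.65, 0.56, 0.51, 0.43 and 0.67 with edgeR adjusted p-values of 0.00849, 0.0101, 0.0157, 0.0245 and 0.0247. Each of the 10 called genes was higher in each slick-oil library than in every source-oil library. The calls were made on these same libraries, so this separation is no separate result, and its share over all genes was not computed. All 10 had also been called lower with source oil against the controls. That call used the same source-oil libraries, so the 2 results are not independent. TSR1 missed the threshold without source-oil library 1 (edgeR adjusted p = 0.0554) or slick-oil library 1 (0.0764), and RRP12 without source-oil library 3 (0.0898) or slick-oil library 2 (0.116). WDR43 reached 0.170 without slick-oil library 2, and NOC3L 0.145 without source-oil library 2. Of the 6 genes that had fallen with slick oil none was called here by edgeR. These 6 were picked for low values in the same slick-oil libraries, so the lack of a call is no separate result. DDX21 had a difference of -0.02 (SE 0.09), RRP1 0.03 (SE 0.24), FBL 0.10 (SE 0.18), GNL2 0.12 (SE 0.11), DKC1 0.15 (SE 0.10) and NOL11 0.34 (SE 0.21). MYC had -0.09 (SE 0.13) and MYCN -0.07 (SE 0.10). The cytosolic ribosomal proteins went the other way, with 61 of 64 lower in slick oil than in source oil and a median of -0.41. The further assembly factors had 11 higher and 1 lower of 57, and among dividing-cell markers 2 of 9 were lower and 0 higher. Lens markers had 4 of 5 higher in slick oil, neuron markers 4 of 6 and photoreceptor and retinal pigment markers 3 of 5, each with 0 lower. Skeletal muscle markers had 5 of 5 lower, liver markers 3 of 5 lower, and blood markers 1 higher and 1 lower of 4. The part of these cell types in the differences was not tested. The 2 groups differ in oil, dose, series and the naming of their libraries, which cannot be told apart.

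**Figure D4:**
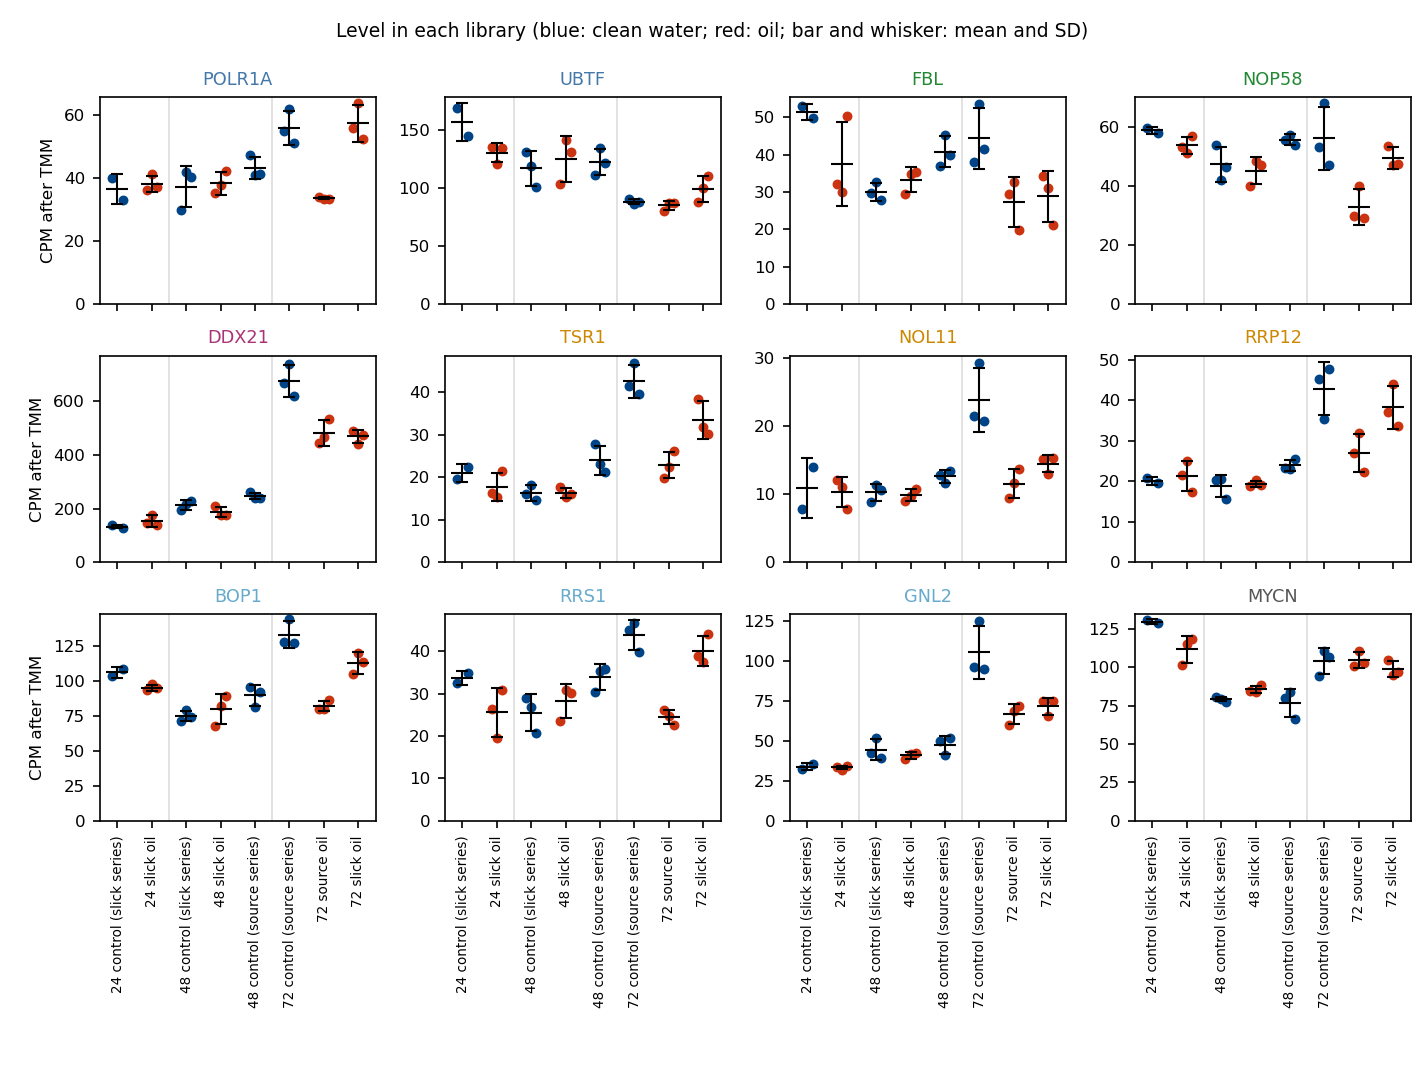
Level in CPM after TMM scaling (vertical axis, from 0) of 12 genes in each library of 8 groups (horizontal axis, ages in hpf; blue, clean water; red, oil), with mean and SD. Against the controls of 72 hpf, POLR1A, NOP58, RRS1, BOP1 and TSR1 are low in source oil, and they are higher in slick oil than in source oil. Both of these readings use the same source-oil libraries and are not independent. DDX21, GNL2, FBL and NOL11 are low in both oils against the same controls of 72 hpf. UBTF and MYCN show no such step.

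At the earlier ages tested none of the 56 genes was called with either oil. Of the further assembly factors, 1 of 63 was called higher with source oil at 24 hpf and 1 of 58 with slick oil at 48 hpf, each beside 0 lower. With slick oil at 24 hpf 0 of 60 were called. With source oil at 24 hpf edgeR called 0 of 47 genes tested and DESeq2 0, beside 5.42% of all genes, 3.98% higher and 1.44% lower. An unadjusted p under 0.05 was reached by 4 of the 47, beside 1545 of all 9793 genes. The median log2 fold change was -0.03 over the 47 genes and -0.0099 over all genes. POLR1B had 25.2, 26.3 and 24.3 CPM in controls and 24.97, 25.1 and 27.9 CPM with oil, a log2 change of 0.04 (SE 0.12). FBL had 131, 137 and 139 CPM in controls and 127, 149 and 129 CPM with oil, a log2 change of -0.01 (SE 0.08), and BOP1 had 0.08 (SE 0.08). The smallest adjusted p was 0.264, for NHP2 at -0.80 (SE 0.36, edgeR), a gene with only 0.958 to 3.07 CPM in this table. NCL at 0.06, NOP56 at -0.15, DKC1 at -0.10, PES1 at -0.16, UTP20 at 0.31, HEATR1 at 0.21, RRN3 at 0.18, UBTF at -0.20, POLR1A at -0.03, MYC at 0.02 and MYCN at -0.09 were not called, nor was NOP14, which had the highest value, 0.45. NPM1, at 0.383 to 1.57 CPM, did not pass the filter. Lens markers had 5 of 6 lower, photoreceptor and retinal pigment markers 2 of 4 lower, and liver markers 4 of 6 higher. Skeletal muscle markers had 1 of 6 lower, blood markers 1 higher and 1 lower of 4, and dividing-cell and neuron markers 0 called.

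With slick oil at 24 hpf edgeR called 0 of 37 genes and DESeq2 0, beside 2.19% of all genes, 1.62% higher and 0.569% lower. An unadjusted p under 0.05 was reached by 7 of the 37, beside 1069 of all 8962 genes. The median was -0.11 over the 37 genes and 0.00046 over all genes. Only 2 controls entered this fit, and without slick-oil library 3 the count was 3. Dividing-cell markers had 1 of 9 lower and blood markers 1 of 4 higher, and the other marker lists had 0 called. FBL had 52.9 and 49.8 CPM in controls and 32.0, 29.97 and 50.4 CPM with slick oil, so that 2 libraries stood apart from the third. Its log2 fold change was -0.43 (SE 0.17, edgeR adjusted p = 0.274). NOP2, a large-subunit RNA methyltransferase, had 35.5 and 32.8 CPM in controls and 22.2, 23.2 and 27.7 CPM with slick oil, and the smallest adjusted p, 0.191 in the edgeR fit, at -0.46 (SE 0.16). LYAR had the lowest value, -1.15 (SE 0.41), at 1.01 to 7.03 CPM, and DDX21 the highest, 0.23 (SE 0.10). The other genes fixed for every comparison ranged from UBTF at -0.24 (SE 0.10) to POLR1B at 0.15 (SE 0.17), with BOP1 at -0.14, UTP20 and DKC1 at -0.17, MYCN at -0.19, PES1 at -0.11, NOP56 at -0.07, MYC at 0.04 and POLR1A at 0.08, while RRN3, HEATR1, NCL and NPM1 were not tested.

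With slick oil at 48 hpf edgeR called 0 of 35 genes and DESeq2 0, beside 2.68% of all genes, 1.92% higher and 0.759% lower. An unadjusted p under 0.05 was reached by 1 of the 35, beside 1512 of all 9091 genes. The median was 0.05 over the 35 genes and -0.0037 over all genes, and 33 of the 35 lay within 0.5 of 0. The 1 gene at an unadjusted p under 0.05 was RRN3, with 2.53, 2.06 and 1.09 CPM in controls and 3.90, 4.28 and 4.92 CPM with slick oil. Its log2 fold change was 1.17 (SE 0.37, edgeR adjusted p = 0.117). POLR1A had 29.7, 41.9 and 40.2 CPM in controls and 35.1, 37.6 and 42.2 CPM with slick oil, a log2 change of 0.06 (SE 0.14), and BOP1 had 0.10 (SE 0.11). FBL was at 0.15, NOP56 at -0.12, DKC1 at -0.06, PES1 at -0.02, UTP20 at -0.13, POLR1B at -0.04, UBTF at 0.10, MYC at -0.06 and MYCN at 0.12, and NOC2L, a large-subunit factor, at 0.54 (SE 0.32). HEATR1 was at 0.612 to 2.21 CPM and was not tested, and NCL and NPM1 had no counts. Photoreceptor and retinal pigment markers had 3 of 5 lower, lens markers 1 of 5 and blood markers 1 of 4, and the other marker lists had 0 called.

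Tests of the difference between oil effects asked whether the fall at 72 hpf was larger than the change at another age. For source oil, 72 minus 24 hpf, 11 of 34 genes were called and all 11 were lower at 72 hpf, beside 5.25% of all genes called, 2.88% higher and 2.37% lower. They were BOP1, TSR1, DDX27, RRS1, NOL11, WDR43, UTP20, FBL, GNL2, RRP9 and BMS1, and the median difference was -0.60 over the 34 genes and 0.011 over all genes. BOP1 led with -0.76 (SE 0.12, edgeR adjusted p = 0.000217), its oil effect being 0.08 at 24 hpf and -0.67 at 72 hpf. POLR1A, at 1.72 to 3.59 CPM in the 24 hpf source-oil table, had a difference of -0.69 (SE 0.36, edgeR adjusted p = 0.306). The count ran from 6, without control library 2 or source-oil library 1 of 72 hpf, to 11, and it was 7 without control library 1, control library 2 or source-oil library 2 of 24 hpf. This contrast joins fold changes of the 24 hpf source-oil table with those of other libraries. FBL, a called gene, had a mean of 135 CPM in that table and 36.0 CPM in the other libraries. Whether a symbol stands for the same reads in both was not tested. Source minus slick oil at 24 hpf, given below, has the same limit.

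Source oil at 72 hpf minus slick oil at 48 hpf, which share no library, had 8 of 36 genes called, all lower, beside 3.52% of all genes called, 1.92% higher and 1.61% lower. The 8 were BOP1, RRS1, POLR1A, TSR1, RRP9, RRN3, DDX27 and FBL, and the median was -0.70 over the 36 genes and -0.013 over all genes. BOP1 had -0.81 (SE 0.15, edgeR adjusted p = 0.00198) and RRS1 -1.001 (SE 0.21, edgeR adjusted p = 0.00749), and both kept their call in all 16 alternative settings. POLR1A had -0.80 (edgeR adjusted p = 0.0174), but 0.0572 without control library 2 of 72 hpf and 0.0573 without slick-oil library 3. The count was 2 without control library 2 of 72 hpf, 3 without source-oil library 1 or slick-series control library 3, 4 and 5 without slick-oil library 3 and 2, and 17 without slick-oil library 1. Age, oil, dose and series differ together in this contrast and cannot be told apart. Dividing-cell markers had 5 of 9 lower in it and lens markers 4 of 5, and dividing-cell markers also 5 of 9 lower in source oil at 72 minus 24 hpf. Slick oil at 48 minus 24 hpf had 0 of 38 genes called by edgeR and 0 by DESeq2, and 0% of all genes were called. Of the 38, 7 had an unadjusted p under 0.05, beside 1078 of all 9498 genes. NOP2 had the smallest p there, at 0.67 (SE 0.21, edgeR adjusted p = 0.299), followed by MYCN at 0.34 and FBL at 0.61, and without slick-oil library 1 of 48 hpf 1 gene was called. Source minus slick oil at 24 hpf had 0 of 35 genes called by edgeR and by DESeq2, beside 0.214% of all genes, 0.119% higher and 0.0953% lower. Of the 35, 4 had an unadjusted p under 0.05, beside 647 of all 8396 genes. NOP2 at 0.51, FBL at 0.42 and RRS1 at 0.47 had the smallest p.

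Clean-water animals show the levels that the pathway takes with age. From 24 to 48 hpf, in slick-series controls, 9 of 36 genes fell and 2 rose, beside 47% of all genes called, 23.7% higher and 23.3% lower. Of the 36 genes 30.6% were called, a smaller share than of all genes. The share lower, 25%, was close to that of all genes. The median was -0.32 over the 36 genes and -0.0062 over all genes. MYCN had 131 and 129 CPM at 24 hpf and 80.6, 79.4 and 77.7 CPM at 48 hpf, a log2 change of -0.70 (SE 0.09, edgeR adjusted p = 3.40e-07). FBL had 29.7, 32.6 and 27.7 CPM at 48 hpf, a log2 change of -0.76 (edgeR adjusted p = 2.79e-05), and BOP1 71.7, 79.0 and 74.1 CPM, a log2 change of -0.49 (edgeR adjusted p = 0.000139). UBTF had -0.41 (edgeR adjusted p = 0.00146), but 0.0949 without control library 2 of 24 hpf. LYAR had -1.21 and UTP6 -0.52, with edgeR adjusted p-values of 0.101 without control library 2 and 0.365 without control library 3 of 24 hpf. DDX21 rose from 138 and 129 CPM to 193, 217 and 228 CPM, by 0.68 (edgeR adjusted p = 3.45e-07), and GNL2 rose by 0.40 (edgeR adjusted p = 0.0241, but 0.168 without control library 2 of 24 hpf). The count was 7 by DESeq2 and 7 without either of the 2 controls of 24 hpf. In the same step all 9 dividing-cell markers fell, with a median of -1.52, and all 5 liver markers, with a median of -2.41. Skeletal muscle markers had 3 of 5 lower and 1 higher. Neuron markers had 5 of 6 higher and 1 lower, photoreceptor and retinal pigment markers 4 of 5 higher and 1 lower, lens markers 4 of 5 higher and blood markers 2 of 4 higher. Their part in the changes of these genes was not tested.

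From 48 to 72 hpf, in source-series controls, most calls were upward. Of 37 genes 16 rose and 1 fell, beside 30.8% of all genes called, 17.2% higher and 13.6% lower, and the median was 0.39 over the 37 genes and -0.0095 over all genes. DDX21 rose from 262, 238 and 241 CPM to the 669, 739 and 620 CPM given above, by 1.44 (SE 0.10, edgeR adjusted p = 1.52e-10). GNL2 rose from 49.8, 40.9 and 51.4 CPM by 1.14 (edgeR adjusted p = 2.54e-07), TSR1 from 27.8, 23.2 and 21.2 CPM by 0.81 (edgeR adjusted p = 0.000131) and RRP12 by 0.83 (edgeR adjusted p = 0.000122). POLR1A rose by 0.36 (edgeR adjusted p = 0.0238), POLR1B by 0.72 (edgeR adjusted p = 0.000822) and MYCN by 0.42 (edgeR adjusted p = 0.00506). UBTF was the 1 gene that fell, from 111, 134 and 121 CPM, by -0.48 (edgeR adjusted p = 0.000928). None of the 6 snoRNP genes tested was called by edgeR in this step, with a median of 0.11 and FBL at 0.11, and 2 snoRNP genes lay below 0. DESeq2 called 10 of the 37. Leaving out 1 library lost the call of POLR1A in 3 fits, with an edgeR adjusted p of 0.125 without control library 2 of 72 hpf. Ribosomal proteins rose in 63 of 64 cases, with a median of 0.61, while 8 of 9 dividing-cell markers fell. Lens and liver markers each had 5 of 5 higher, and photoreceptor and retinal pigment markers 3 of 5 higher and 2 lower. Neuron markers had 2 higher and 2 lower of 6, blood markers 1 and 1 of 4, and skeletal muscle markers 1 of 5 higher. Their part here was not tested.

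This step shares the 72 hpf controls with both oil comparisons, so the levels are set side by side. The source-oil mean of 72 hpf lay below the 48 hpf control mean of the same series in 27 of the 36 genes tested. In 11 of them each source-oil library was below each 48 hpf control, and in 3 each was above. These counts were not made over all genes, so they do not set the pathway apart from other genes. POLR1A had 47.1, 40.9 and 41.3 CPM at 48 hpf in clean water and 33.3 to 33.8 CPM at 72 hpf in source oil, below all 3. TSR1, at 20.0 to 26.2 CPM in source oil, overlapped the 48 hpf controls, with 1 library below all 3. DDX21 was among those above, at 445 to 534 CPM against 238 to 262 CPM.

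At 48 hpf the controls of both series could be compared with each other, as a measure of how far untreated animals differ. By edgeR and by DESeq2 0 of 35 genes were called, beside 4.45% of all genes, 2.41% higher and 2.04% lower. However, 30 of the 35 stood higher in the source series, with a median of 0.26 against 0.0097 over all genes. Of the 35, 11 had an unadjusted p under 0.05, beside 1904 of all 9100 genes. FBL, at 37.0, 45.2 and 39.98 CPM in the source series and 29.7, 32.6 and 27.7 CPM in the slick series, had the smallest adjusted p, 0.0558 in the edgeR fit, at 0.45 (SE 0.13). TSR1 had 0.57 (SE 0.17, edgeR adjusted p = 0.0562) and DKC1 0.28 (edgeR adjusted p = 0.0725). The count was 3 without source-series control library 1. Cytosolic ribosomal proteins had 33 of 64 called higher in the source series and 0 lower, with a median of 0.32. Slick oil at 72 hpf was compared with controls of the source series, and the part of these shifts in that result was not tested.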

How the data were processed

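RNA sequencing libraries were made from pools of 30 whole animals. The 6 deposited tables hold whole-number read counts per gene for each library, per the file headers. Each also holds the mean normalized signal, the log2 fold change, the test score and the p-value and adjusted p-value of a DESeq2 fit by the authors, per the file headers; only the deposited log2 fold changes and adjusted p-values were used, and only as an alternative. Per the submitters' processing notes, the tools were HTSeq and DESeq2 and the build was human hg19, with no version or role stated. The aligner is not given in the sources used here. The tables have 37 library columns in all, of which 1 matched no labelled sample and was left out.

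The counts were tested with edgeR 4.0.16 (R 4.3.3): filterByExpr with a minimum count of 10, TMM scaling, a quasi-likelihood test of the 2 groups compared, Benjamini-Hochberg adjustment over all genes tested, threshold 0.05. The edgeR test gives no SE. The SE printed here was derived as the absolute log2 fold change divided by the square root of the F statistic. Differences between oil effects were tested as interactions. DESeq2 1.42.0, other scaling, no filter, a fit of all groups and fits with 1 library left out were alternatives. The scripts were tested on simulated counts with 200 changed genes. The 56 genes, the other lists and the rule for named genes were chosen with earlier results of these data known. The rule names 15 genes in each oil comparison, and by role the called genes with the smallest adjusted p, the extremes and any gene against the direction.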

Additional observations from a re-analysis of the deposited data

Results flagged for a closer look

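Of the genes described above, 19 values were singled out because an oil effect differed between ages or oils by the interaction test of edgeR (adjusted p under 0.05). For source oil, 72 minus 24 hpf, the log2 differences were -0.76 for BOP1, -1.11 for TSR1, -1.13 for DDX27, -0.92 for RRS1, -1.04 for NOL11, -0.66 for WDR43, -1.11 for UTP20, -0.68 for FBL, -0.52 for GNL2, -0.77 for RRP9 and -0.78 for BMS1. BOP1, DDX27, RRS1 and TSR1 kept this call in all 16 alternative settings, while 7 did not. In the 24 hpf source-oil table a symbol may stand for other reads than in the other libraries, which was not tested. For source oil at 72 hpf minus slick oil at 48 hpf, the log2 differences were -0.81 for BOP1, -1.001 for RRS1, -0.80 for POLR1A, -0.92 for TSR1, -1.05 for RRP9, -2.12 for RRN3, -1.10 for DDX27 and -0.87 for FBL. BOP1 and RRS1 kept this call in all 16 alternative settings, while 6 did not. RRN3 rested on low levels, 1.09 to 5.05 CPM in the 12 libraries of that contrast.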

How the results depend on the processing

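No call among the 56 genes changed direction under any alternative run: of 1100 values for called genes, 899 stayed past the threshold and 201 did not. In source oil at 72 hpf the count of called genes was 24 with other scaling or no filter, 26 in 1 fit of all groups, 18 by DESeq2 and 18 in the authors' deposited table, and 15 of the 24 genes kept their call throughout. DESeq2 called 7 genes from 24 to 48 hpf and 10 from 48 to 72 hpf in controls, and 5 between slick and source oil. Between the 48 hpf controls of both series, 2 were called with scaling factors computed without the pathway and the ribosomal proteins, and 1 in 1 fit of all groups. With 1 library left out the counts ran from 17 to 24 in source oil at 72 hpf, 0 to 3 in slick oil at 24 hpf, 2 to 7 in slick oil at 72 hpf, 7 to 14 from 24 to 48 hpf, 12 to 15 from 48 to 72 hpf, 0 to 3 between the 48 hpf controls, 7 to 12 between slick and source oil at 72 hpf, 0 to 1 for slick oil at 48 minus 24 hpf, 2 to 17 for source oil at 72 minus slick oil at 48 hpf, and 6 to 11 for source oil at 72 minus 24 hpf. The lowest count of source oil at 72 hpf came without control library 2 or oil library 3. Whether the replicate numbers pair the samples cannot be decided from 2 or 3 libraries in a group. Across genes, deviations from the group mean in same-numbered libraries of oil and control correlated at -0.237 to 0.137. For source oil these values were all above 0. Differently numbered libraries correlated at -0.215 to 0.202. At 48 and 72 hpf the numbers follow the order of the library names, not the labels. With the number as a replicate block, 26 genes were called in source oil at 72 hpf, 6 in slick oil at 72 hpf, and 0 in the 3 other oil comparisons. The cause of these shifts was not tested. Depth limits the genes of few counts: in slick oil at 72 hpf the SE was 0.38 for RRN3 and 0.35 for HEATR1, against 0.09 for BOP1.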
